A study of Mus musculus with 18 samples.

Results

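Proteasome activators, the proteasome inhibitor PI31 and the inducible catalytic subunits of the immunoproteasome were examined in NIH-3T3 cells, an immortalized mouse fibroblast line. The set comprised the 7 rows of the count table with the symbols Psme1, Psme2, Psme3, Psme4, Psmf1, Psmb9 and Psmb10, out of 23420 rows. All 7 were among the 11762 genes with enough reads to be tested. Whole reads per gene had been counted in 18 libraries, 3 in each of 6 groups. Wild-type (WT) cells and a line in which Nrf1 had been knocked out by CRISPR/Cas9 (Nrf1KO; the gene symbol in the table is Nfe2l1) were each kept in the vehicle DMSO or exposed to carfilzomib (CFZ) at 200 nM, with separate groups for 6 h and 24 h of exposure. CFZ is an irreversible inhibitor of the proteasome's catalytic sites. How long the DMSO cells were kept in vehicle, and whether the Nrf1KO line is 1 clone, are not given in the sources used here, so that the effect of Nrf1 loss cannot be told apart from other differences between 2 lines. The labels number 3 replicates a group, the paper calls them biological, and neither says more about their separation. The samples are bulk RNA, in which fewer cells of a kind and less RNA per cell cannot be told apart.

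The proteasome core is a closed barrel that carries the proteolytic sites inside. It is opened by caps, either the ATP-dependent 19S particle, which receives ubiquitinated proteins, or activators that use neither ATP nor ubiquitin: the PA28 alpha-beta ring (Psme1 and Psme2), the nuclear PA28 gamma ring (Psme3) and the single-chain PA200 (Psme4). PI31 (Psmf1) inhibits the core in vitro and has also been tied to proteasome assembly and transport. In the immunoproteasome the inducible subunits encoded by Psmb9, Psmb10 and Psmb8 take the places of the constitutive catalytic subunits encoded by Psmb6, Psmb7 and Psmb5. They are known as interferon-gamma targets that alter the peptides supplied to MHC class I. Nrf1 is a transcription factor that raises proteasome genes when the proteasome is inhibited, through antioxidant response elements.

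Psme1 lies on chromosome 14 (55578123 to 55581529, plus strand of GRCm38, GENCODE M21) and Psme2 lies 5911 bases further on the opposite strand (55587441 to 55591113). Psme3 and Psme4 are both on chromosome 11, at 101316213 to 101323537 and at 30771726 to 30880361, each on the plus strand. Psmf1 is on chromosome 2 (151715812 to 151744186, minus strand), Psmb9 on chromosome 17 (34181987 to 34187764, minus strand) and Psmb10 on chromosome 8 (105935735 to 105938444, minus strand). Psmb8 begins 9956 bases from Psmb9. Psmb9 and Tap1, a peptide transporter gene on the other strand, share 212 exonic bases, which is 15.7% of the exonic bases of Psmb9. The use of strand in the counting is not stated, so that reads there cannot be told apart. Of the overlapping short stretches into which Psme2 transcripts were divided, 33.8% also occur in Psme2b, a near-identical gene that was not analysed here, and the Psme2 values are uncertain to that extent.

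The promoters of the 4 activator and inhibitor genes in which a searched motif was found are shown to set the sequence beside the expression values. Each is the RefSeq window (GRCm38.p6) from 250 bases before to 50 after an annotated start, 5′ to 3′ on the strand of the gene, with the motif in capitals. The windows are chr11:30771525-30771824 (plus) for Psme4, chr2:151741261-151741560 (minus) for Psmf1, chr11:101315963-101316262 (plus) for Psme3 and chr14:55578244-55578543 (plus) for Psme1. Those of Psmf1, Psme1 and Psme4 are around starts that lie inside the gene spans given above.
Psme4: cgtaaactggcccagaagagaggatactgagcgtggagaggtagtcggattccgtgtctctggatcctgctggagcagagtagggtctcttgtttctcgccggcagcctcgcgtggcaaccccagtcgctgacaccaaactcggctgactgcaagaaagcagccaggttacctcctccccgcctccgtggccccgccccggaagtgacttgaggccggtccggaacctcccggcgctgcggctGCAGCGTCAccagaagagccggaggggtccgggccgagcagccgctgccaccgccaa
Psmf1: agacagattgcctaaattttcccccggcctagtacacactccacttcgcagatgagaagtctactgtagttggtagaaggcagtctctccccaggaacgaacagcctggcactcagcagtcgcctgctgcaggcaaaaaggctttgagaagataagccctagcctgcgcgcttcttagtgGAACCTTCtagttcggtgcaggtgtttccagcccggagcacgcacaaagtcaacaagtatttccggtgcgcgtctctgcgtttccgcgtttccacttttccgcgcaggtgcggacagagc
Psme3: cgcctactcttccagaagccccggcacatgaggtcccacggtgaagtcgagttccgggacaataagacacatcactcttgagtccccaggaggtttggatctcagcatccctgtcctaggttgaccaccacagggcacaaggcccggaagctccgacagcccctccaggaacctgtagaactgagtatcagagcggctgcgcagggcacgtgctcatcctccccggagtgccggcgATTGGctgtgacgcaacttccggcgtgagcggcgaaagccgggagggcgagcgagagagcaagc
Psme1: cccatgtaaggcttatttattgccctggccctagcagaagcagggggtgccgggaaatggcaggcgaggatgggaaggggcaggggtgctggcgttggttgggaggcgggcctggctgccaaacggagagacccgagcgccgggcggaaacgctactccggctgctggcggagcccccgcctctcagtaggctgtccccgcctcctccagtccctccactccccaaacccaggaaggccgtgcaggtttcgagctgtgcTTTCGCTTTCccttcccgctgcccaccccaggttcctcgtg
The capitals in Psme4 are the antioxidant response element core, searched as TGACNNNGC on both strands. It reads TGACGCTGC on the strand opposite to the gene and spans bases −7 to 2 relative to the start. Those in Psmf1 are a pair of heat shock units (GAANNTTC, read GAACCTTC, bases −70 to −63), those in Psme3 a CCAAT box on the opposite strand (bases −14 to −10), and those in Psme1 the core of an interferon-stimulated response element (read GAAAGCGAAA on the opposite strand, bases 10 to 19). Of 32851 RefSeq windows of 300 bases, 12.4% held the first motif, 7.86% the second, 37.4% the third and 3.44% the fourth. An interferon-gamma activated site (TTCNNNGAA, in 8.3% of windows) and a cAMP response element (TGACGTCA, in 1.79%) were searched too and were in none of the windows of the 7 members. In the Psmb9 window a CCAAT box and a pair of heat shock units were found, and the activated site was found in the window of Psmb8. In the 2 windows of Psme2 and in that of Psmb10 none of the 6 motifs was found. A match is a description of the letters and not evidence of binding.

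The libraries held 8333148 to 23917081 counts (median 14419832). Replicates of a group differed by 1.44 to 8.47 times the counting noise (chi-square per degree of freedom), so that none was a copy of another. Levels are given as CPM, the read count scaled to the library total with TMM factors. Nfe2l1 RNA was at 437 to 457 CPM in WT DMSO and at 174 to 185 in Nrf1KO DMSO. It reached 628 to 650 in WT and 413 to 427 in Nrf1KO cells at 6 h of CFZ, and 555 to 580 against 201 to 210 at 24 h. Nrf1KO was lower than WT in each treatment, and reads of the gene remained in it. All 8 fibroblast markers examined were detected, with summed levels of 27819 to 36707 CPM in DMSO. Those sums were 8568 to 8869 CPM in WT and 11465 to 13506 CPM in Nrf1KO cells after 24 h of CFZ. Markers of other cell types summed to little in every library: 6 immune genes to 6.26 to 17.5 CPM, 5 epithelial genes to 0.352 to 13.0 and 4 endothelial genes to 0.360 to 4.33. Of these, Cd3e, Epcam and Krt18 had no read in any library. Ptprc, a leukocyte gene, had no read in the 9 WT libraries and 6 to 26 reads in each Nrf1KO library. Csf1r, a macrophage gene, rose at 24 h from 0.112 to 6.44 CPM in WT (mean of 3) and from 0.0695 to 0.777 CPM in Nrf1KO cells, and was lower in Nrf1KO than in WT at that time. The endothelial gene Cdh5 rose at 24 h by 3.67 on the log2 scale in WT and 4.22 in Nrf1KO cells, and the epithelial gene Cdh1 fell, with log2 changes of −3.54 and −4.87. The part of these differences in the results below was not tested.

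In WT cells CFZ for 6 h raised 3 of the 7 genes (Psme3, Psme4, Psmf1) and lowered 3 (Psme1, Psme2, Psmb9), where 71.9% of all tested genes were called, 35.6% higher and 36.2% lower. At 24 h 4 were higher (Psme1 beside those 3) and Psmb9 was lower, with 83.8% of all genes called, 43.2% higher and 40.5% lower. In Nrf1KO cells 3 were higher and 4 lower at 6 h, against 69.5% of all genes (34.5% higher, 35.0% lower). At 24 h 4 were higher and 3 lower, against 85.5% of all genes (44.4% higher, 41.1% lower). Within a line both times were compared with the same DMSO libraries. The split of all calls depended on scaling: with total counts alone the higher calls were 35.4% of calls in WT at 6 h (49.6% with TMM), 36.4% in Nrf1KO cells at 6 h (49.7%) and 41.6% in Nrf1KO cells at 24 h (52.0%). For Nrf1KO against WT they were 57.7% in DMSO (46.9%) and 60.8% at 6 h (49.8%), and with upper-quartile scaling they were 37.9% in WT at 6 h. So large a share of all genes changed that the number of members called says little, and the sizes of the changes are given gene by gene. Here and below a gene is called where the adjusted p of edgeR's quasi-likelihood test was under 0.05. Fold changes are log2 ± SE. The median member changed by −0.01 at 6 h and 0.27 at 24 h in WT, and by −0.23 and 0.15 in Nrf1KO cells. The median of all tested genes was between −0.02 and 0.03 in each comparison.

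**Figure D1:**
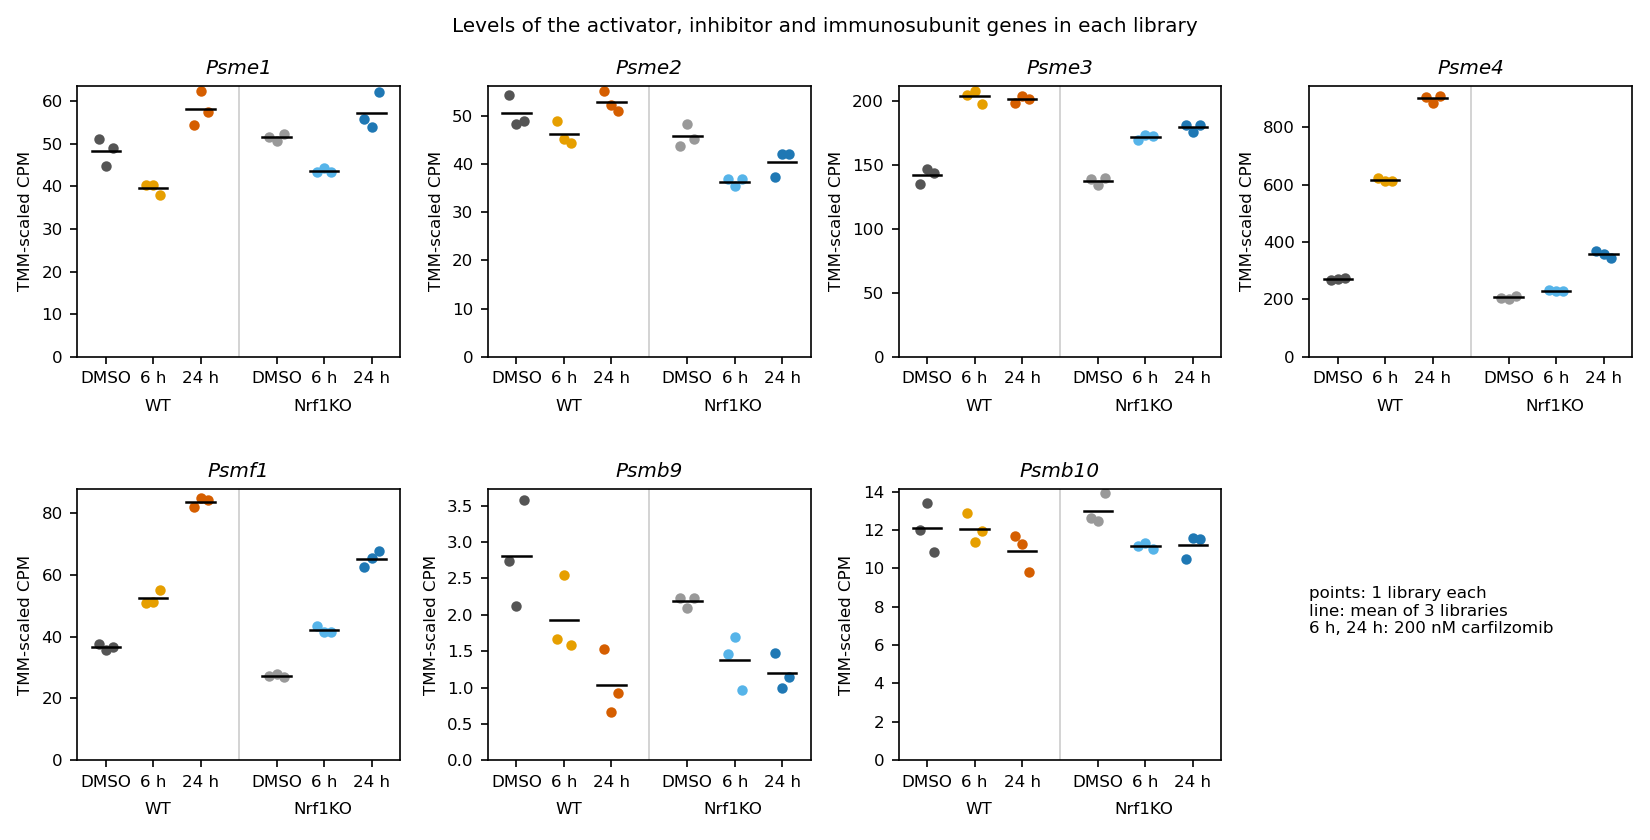
Levels of each gene (TMM-scaled CPM, linear axis from 0) in the 18 libraries by line and treatment, with 1 point a library and a line at the mean of 3. Psme4 rose from 272 to 900 CPM in WT and from 207 to 357 CPM in Nrf1KO cells, and Psmf1 rose in both lines.

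Psme4, which encodes PA200, an activator linked to chromatin, histone turnover and spermatogenesis, had the largest rise of the 7 genes in WT cells. Its levels in WT DMSO were 269, 271 and 276 CPM. After 6 h of CFZ they were 623, 613 and 614 CPM, and after 24 h they were 907, 885 and 908 CPM. In WT cells the 3 treatments were thus fully separated and each step was upward. The 6 h rise was 1.18 ± 0.03, or 2.27-fold, with an adjusted p of 1.18e-24 by edgeR. At 24 h it was 1.73 ± 0.03, or 3.31-fold (adjusted p = 1.75e-29 by edgeR). In Nrf1KO cells the DMSO libraries held 206, 202 and 213 CPM. At 6 h they held 232, 230 and 230 CPM, and at 24 h 369, 359 and 344 CPM. These groups did not overlap either, but the 6 h step was small, 0.15 ± 0.03 (1.11-fold, adjusted p = 0.000181 by edgeR). It was 0.04 with an adjusted p of 0.28, and not called, when libraries were scaled by total count alone, and the adjusted p over all alternatives ran from 8.4e-05 to 0.28. The 24 h rise of 0.79 ± 0.03 (1.72-fold, adjusted p = 2.52e-20 by edgeR) was called in all 25 alternatives.

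The difference between the lines in the Psme4 response was tested as the interaction of line and CFZ. It was −1.03 ± 0.05 at 6 h (adjusted p = 1.35e-17 by edgeR), so that the fold change in WT was 2.04 times that in Nrf1KO cells. At 24 h the interaction was −0.94 ± 0.05, with a fold change in WT 1.92 times that in Nrf1KO cells (adjusted p = 1.79e-17 by edgeR). Nrf1KO cells were lower than WT by 0.39 ± 0.03 on the log2 scale already in DMSO (1.31-fold, adjusted p = 1.38e-11 by edgeR). Under CFZ they were 2.67-fold lower at 6 h and 2.52-fold lower at 24 h. Between 6 and 24 h the gene rose in each line, by 0.55 ± 0.03 in WT and 0.63 ± 0.03 in Nrf1KO cells. All 6 groups could be put in order, each neighbour differing from the next, from Nrf1KO DMSO at the bottom through Nrf1KO 6 h, WT DMSO, Nrf1KO 24 h and WT 6 h to WT 24 h. The highest group mean was 4.35 times the lowest.

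Psmf1, which encodes PI31, rose in both lines at both times. WT DMSO libraries were at 37.5, 35.5 and 36.7 CPM. WT cells reached 50.8, 51.2 and 55.2 CPM at 6 h and 81.9, 84.7 and 84.1 CPM at 24 h. Neither group overlapped with DMSO. The increases were 0.52 ± 0.05 (1.43-fold, adjusted p = 2.84e-11 by edgeR) and 1.19 ± 0.04 (2.29-fold, adjusted p = 8.65e-22 by edgeR). Nrf1KO libraries held 27.2, 27.8 and 27.0 CPM in DMSO, 43.3, 41.5 and 41.5 CPM at 6 h, and 62.5, 65.4 and 67.6 CPM at 24 h. The groups were again apart, with rises of 0.63 ± 0.05 (1.55-fold, adjusted p = 4.16e-12 by edgeR) and 1.26 ± 0.05 (2.39-fold, adjusted p = 7.5e-22 by edgeR). The interaction was not called: 0.11 at 6 h, with a 95% interval of −0.03 to 0.26 and an adjusted p of 0.223 by edgeR, and 0.06 at 24 h (interval −0.07 to 0.20, adjusted p = 0.402 by edgeR). The interval for Psme4 at 24 h was −1.03 to −0.85 and lay wholly outside that of Psmf1. The Nrf1KO line was lower throughout, by 0.43 ± 0.05 in DMSO (adjusted p = 1.55e-08 by edgeR), 0.31 ± 0.05 at 6 h and 0.36 ± 0.04 at 24 h. Every neighbour in the order of the 6 groups differed from the next, with a span of 3.06 times between the lowest (Nrf1KO DMSO) and the highest (WT 24 h).

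**Figure D2:**
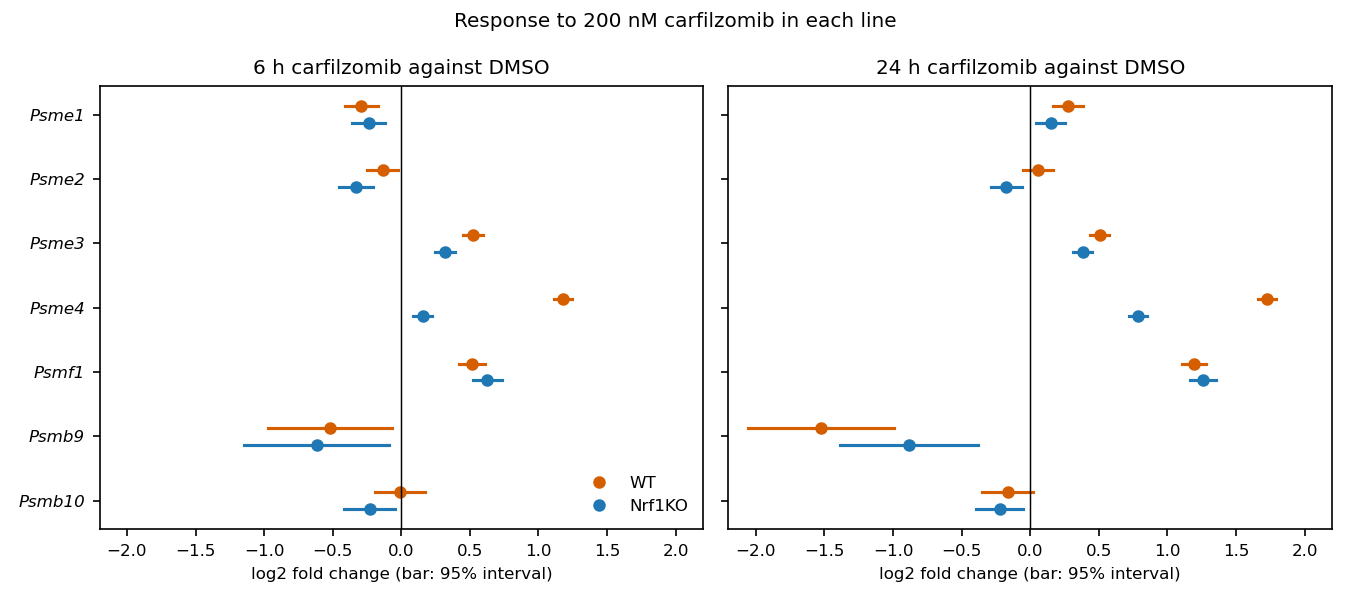
Log2 fold change of each gene under 200 nM CFZ against DMSO at 6 h and 24 h (bars, 95% interval), in WT (orange) and Nrf1KO cells (blue), 3 libraries a group. The lines lie far apart for Psme4 (1.18 against 0.15 at 6 h, 1.73 against 0.79 at 24 h), their intervals overlap for Psmf1, and the intervals of Psmb9 are the widest.

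Psme3, the PA28 gamma subunit of a nuclear ring known for ubiquitin-independent turnover of regulators such as the cell-cycle inhibitor p21, rose early and then held its level. WT DMSO libraries held 135, 146 and 143 CPM. They held 205, 208 and 197 CPM at 6 h and 198, 203 and 202 CPM at 24 h. Both CFZ groups were above DMSO and overlapped with each other. The rise was 0.52 ± 0.03 at 6 h (1.44-fold, adjusted p = 1.16e-14 by edgeR) and 0.51 ± 0.03 at 24 h. The step from 6 to 24 h was −0.02 (95% interval −0.08 to 0.05). In Nrf1KO cells the levels were 139, 134 and 140 CPM in DMSO, 169, 173 and 173 CPM at 6 h, and 181, 175 and 181 CPM at 24 h. The CFZ groups were above DMSO here too, by 0.32 ± 0.04 (adjusted p = 2.31e-09 by edgeR) and 0.38 ± 0.03 (adjusted p = 7.83e-12 by edgeR). The lines did not differ detectably in DMSO (−0.04, interval −0.11 to 0.03). The response was smaller in Nrf1KO cells by 0.20 ± 0.05 at 6 h (adjusted p = 0.00131 by edgeR). At 24 h the interaction was −0.13 ± 0.05 (adjusted p = 0.0269 by edgeR). The call at 24 h was lost with upper-quartile scaling, without an expression filter, and when any of 5 libraries was left out: WT DMSO replicate 1 (−0.09), WT 24 h replicate 2 (−0.12), Nrf1KO DMSO replicate 1 (−0.12) or 3 (−0.11), or Nrf1KO 24 h replicate 2 (−0.11). Over the alternatives the adjusted p ran from 0.000675 to 0.109. Under CFZ Nrf1KO cells were lower by 0.25 ± 0.04 at 6 h and 0.17 ± 0.03 at 24 h. In the order of the 6 groups, the WT groups at 6 h and 24 h came first, then those of Nrf1KO at 24 h and 6 h, then both DMSO groups, and neighbours differed between these pairs but not within them.

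Psme1 and Psme2, whose products form a joint ring that interferon-gamma induces, fell together at 6 h and rose together from 6 to 24 h in each line, and parted at 24 h against DMSO. WT levels of Psme1 were 51.2, 44.8 and 48.9 CPM in DMSO, 40.2, 40.4 and 38.0 CPM at 6 h, and 54.5, 62.3 and 57.5 CPM at 24 h. All 6 h libraries lay below and all 24 h libraries above those in DMSO. Psme1 fell by 0.29 ± 0.06 at 6 h (1.22-fold lower, adjusted p = 5.42e-05 by edgeR) and was higher by 0.27 ± 0.05 at 24 h (1.21-fold, adjusted p = 3.21e-05 by edgeR). Nrf1KO libraries held 51.5, 50.7 and 52.3 CPM in DMSO, 43.3, 44.3 and 43.4 CPM at 6 h, and 55.8, 53.9 and 62.1 CPM at 24 h, a sequence of the same shape. The fall at 6 h was 0.24 ± 0.06 on the log2 scale (adjusted p = 0.000568 by edgeR). The rise at 24 h, 0.15 ± 0.05 (adjusted p = 0.0094 by edgeR), was not firm. It was 0.06 without Nrf1KO 24 h replicate 3, turned to −0.03 with scaling by total count alone, and lost its call in 6 of 25 alternatives (adjusted p from 0.00645 to 0.551). The interaction was not called at 6 h (0.05, interval −0.12 to 0.22). At 24 h it was −0.12 (interval −0.28 to 0.03) and was called with scaling by total count (−0.20) and without Nrf1KO 24 h replicate 3 (−0.19). Nrf1KO cells were higher than WT by 0.14 ± 0.06 at 6 h (adjusted p = 0.049 by edgeR), a call lost in 14 of 25 alternatives (adjusted p from 0.00395 to 0.201). These included the removal of WT DMSO replicate 1 or 3, any replicate of WT or Nrf1KO 6 h, WT 24 h replicate 3, Nrf1KO DMSO replicate 2, or Nrf1KO 24 h replicate 1 or 2, with values of 0.11 to 0.15. In DMSO the difference was 0.09 (adjusted p = 0.143 by edgeR), and it was called without WT DMSO replicate 1 (0.16) or Nrf1KO 24 h replicate 3 (0.11). In the order of the 6 groups the 24 h groups were highest and the 6 h groups lowest, and neither the 24 h groups of the 2 lines nor their DMSO groups differed from each other.

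Psme2 fell under CFZ in the Nrf1KO line at both times, and was not called at 24 h in WT. WT cells held 54.3, 48.4 and 48.9 CPM in DMSO, 48.9, 45.2 and 44.4 CPM at 6 h, and 55.2, 52.3 and 50.9 CPM at 24 h. These groups overlapped with DMSO. The 6 h change was −0.13 ± 0.06 (adjusted p = 0.0305 by edgeR), a call that was lost without WT DMSO replicate 1 (−0.07) or WT 6 h replicate 2 (−0.11) or 3 (−0.10). At 24 h it was 0.05 (interval −0.06 to 0.16), and slightly below 0 with 3 of the alternatives. Nrf1KO cells held 43.7, 48.3 and 45.2 CPM in DMSO, 36.8, 35.4 and 36.8 CPM at 6 h, and 37.3, 42.0 and 42.0 CPM at 24 h. Both CFZ groups lay below DMSO, by 0.33 ± 0.06 at 6 h (1.26-fold lower, adjusted p = 1.3e-05 by edgeR) and by 0.17 ± 0.05 at 24 h (adjusted p = 0.00464 by edgeR). The interaction was −0.23 ± 0.08 at 24 h (adjusted p = 0.0118 by edgeR). At 6 h it was −0.20 ± 0.08 with an adjusted p of 0.0559 by edgeR, and it was called (adjusted p = 0.0405) with the replicate number as a block. Over all alternatives the adjusted p ran from 0.00687 to 0.143, and the call came with 7 removals of 1 library, with values of −0.28 without WT DMSO replicate 1, −0.24 and −0.25 without WT 6 h replicate 2 or 3, and −0.22 without Nrf1KO DMSO replicate 1 or any replicate of Nrf1KO 24 h. Nrf1KO cells were lower than WT by 0.35 ± 0.06 at 6 h and by 0.37 ± 0.06 at 24 h. The difference in DMSO, −0.15 ± 0.05 (adjusted p = 0.0171 by edgeR), was lost with DESeq2, with scaling by total count, and without WT DMSO replicate 1 (−0.07) or Nrf1KO DMSO replicate 1 (−0.12) or 3 (−0.14). In the order of the 6 groups, WT 24 h did not differ from WT DMSO, nor WT 6 h from Nrf1KO DMSO, and both CFZ groups of Nrf1KO came last.

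The ratio of Psme1 to Psme2 reads within a library does not depend on scaling between libraries. In WT it was 0.943, 0.926 and 1.001 in DMSO, 0.822, 0.894 and 0.856 at 6 h, and 0.987, 1.19 and 1.13 at 24 h. In Nrf1KO cells it was 1.18, 1.05 and 1.16 in DMSO, 1.18, 1.25 and 1.18 at 6 h, and 1.499, 1.28 and 1.48 at 24 h. Every Nrf1KO library was above every WT library of the same treatment, and with 3 libraries against 3 the smallest exact permutation p is 0.1, so that no test was made. The mean ratio was 0.957 ± 0.040 (SD, n = 3) in WT DMSO and 1.42 ± 0.12 in Nrf1KO cells at 24 h. Across the 18 libraries the log2 levels of the pair had a Pearson r of 0.264, a description over libraries that share treatments and lines, where Psme3 and Psmf1 had 0.848 and Psme4 and Psmf1 0.843.

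Psmb9, the inducible counterpart of Psmb6 (the caspase-like subunit gene), had few reads and fell under CFZ. WT DMSO libraries held 54, 36 and 54 reads (2.74, 2.13 and 3.58 CPM). They held 22, 35 and 21 reads at 6 h (1.67, 2.55 and 1.58 CPM), and 15, 11 and 15 reads at 24 h (1.52, 0.660 and 0.930 CPM). The 24 h libraries lay below DMSO and the 6 h libraries overlapped with it. The 24 h fall was −1.52 ± 0.26 (2.88-fold lower, adjusted p = 3.1e-06 by edgeR). Nrf1KO cells held 2.23, 2.10 and 2.24 CPM in DMSO, 1.47, 1.70 and 0.959 CPM at 6 h, and 1.48, 0.999 and 1.14 CPM at 24 h. Both CFZ groups lay below DMSO, and the 24 h fall was −0.88 ± 0.25 (1.84-fold lower, adjusted p = 0.00155 by edgeR). The lines were not distinguishable at this depth: the interaction was 0.64 at 24 h with an interval of −0.13 to 1.41 (adjusted p = 0.143 by edgeR), and it was 0.92 and called (adjusted p = 0.0498) without WT 24 h replicate 1, in a range over the alternatives of 0.0498 to 0.436. Nrf1KO and WT did not differ detectably in DMSO (−0.34, interval −0.74 to 0.06), where the difference was −0.50 and called without WT DMSO replicate 2.

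The 6 h changes of Psmb9 were −0.52 ± 0.22 in WT (adjusted p = 0.0365 by edgeR) and −0.62 ± 0.26 in Nrf1KO cells (adjusted p = 0.0352 by edgeR). Neither was called by DESeq2, with adjusted p of 0.0977 and 0.0752 (ranges over the alternatives 0.00902 to 0.205 and 0.0123 to 0.13). The WT call was lost without DMSO replicate 1 (−0.53) or 3 (−0.34) or 6 h replicate 1 (−0.41) or 3 (−0.39). The Nrf1KO call was lost without DMSO replicate 1 (−0.61) or 3 (−0.60) or 6 h replicate 1 (−0.64) or 3 (−0.47). No neighbouring pair in the order of the 6 groups differed for Psmb9.

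Psmb10, the inducible counterpart of the trypsin-like subunit gene Psmb7, had group means of 10.9 to 13.0 CPM. WT libraries held 12.0, 13.4 and 10.9 CPM in DMSO, 12.9, 11.4 and 12.0 CPM at 6 h, and 11.7, 11.3 and 9.79 CPM at 24 h. All 3 groups overlapped, with changes of −0.01 at 6 h (interval −0.19 to 0.18) and −0.16 at 24 h (interval −0.35 to 0.02, adjusted p = 0.0917 by edgeR). The 24 h change was called in 10 of 25 alternatives, 7 of them removals of 1 library: it was −0.23 without WT DMSO replicate 3 and −0.20 without any one replicate of WT 6 h or of Nrf1KO 24 h. The change from 6 to 24 h in WT was −0.16, and −0.24 and called without WT 6 h replicate 2. Nrf1KO libraries held 12.6, 12.5 and 13.9 CPM in DMSO, 11.2, 11.4 and 11.03 CPM at 6 h, and 10.49, 11.6 and 11.5 CPM at 24 h. They were lower than DMSO by 0.23 ± 0.09 at 6 h (adjusted p = 0.0271 by edgeR) and by 0.22 ± 0.08 at 24 h (adjusted p = 0.0158 by edgeR). Both calls were lost with DESeq2 and without Nrf1KO DMSO replicate 3 (−0.17 and −0.16), and that at 6 h also without 6 h replicate 1 (−0.23), 2 (−0.24) or 3 (−0.22). No neighbours in the order of the 6 groups differed, and the highest group mean was 1.19 times the lowest. Psmb8, the remaining inducible subunit, had 5 reads in all: none in 14 of the 18 libraries, including the 9 of WT, and at most 2 in one. A count of 0 allows up to 3 reads, or 0.116 to 0.360 CPM in these libraries, by counting error alone.

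**Figure D3:**
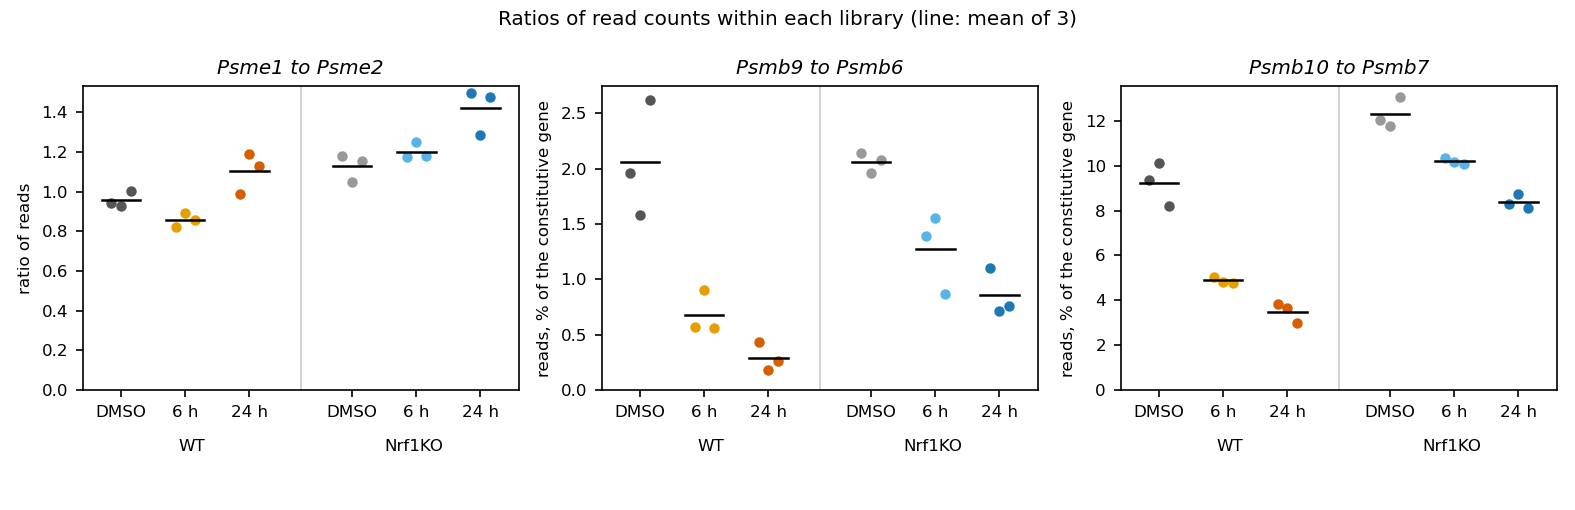
Ratios of read counts within each library by line and treatment (vertical axes from 0, line at the mean of 3 libraries). Psme1 against Psme2 was higher in every Nrf1KO library than in WT of the same treatment, and the mean percentage of Psmb10 against Psmb7 went from 9.22% in DMSO to 3.49% at 24 h in WT and from 12.3% to 8.37% in Nrf1KO cells.

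Set against the constitutive gene that each replaces, the inducible subunits had lower mean percentages under CFZ in both lines, given without a test. Psmb10 reads were 9.36, 10.1 and 8.19% of Psmb7 reads in WT DMSO, 5.06, 4.83 and 4.78% at 6 h, and 3.84, 3.64 and 2.99% at 24 h. In Nrf1KO cells they were 12.0, 11.8 and 13.0%, then 10.3, 10.2 and 10.1%, then 8.28, 8.72 and 8.11%. The groups were separated within each line, and the lines were separated in each treatment. Psmb9 reads averaged 2.06 ± 0.53% of Psmb6 reads (SD, n = 3) in WT DMSO, 0.676 ± 0.194% at 6 h and 0.289 ± 0.129% at 24 h. They averaged 2.06 ± 0.09%, 1.27 ± 0.36% and 0.858 ± 0.212% in Nrf1KO cells. The denominators moved: Psmb7 rose by 1.26 ± 0.04 and Psmb6 by 1.40 ± 0.04 in WT at 24 h, against 0.34 ± 0.04 and 0.41 ± 0.04 in Nrf1KO cells. Exonic bases that Psmb7 shares with Nek6 on the other strand make up 34.9% of its length.

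Per kilobase of exon, the activators were within a narrow range in WT DMSO: 53.2 ± 2.2 CPM per kilobase for Psme3 (SD, n = 3), 51.7 ± 3.4 for Psme2, 43.4 ± 2.9 for Psme1 and 41.9 ± 0.6 for Psme4. Psmf1 was at 9.17 ± 0.25 and Psmb10 at 9.23 ± 0.97, whereas Psmb9 was at 2.08 ± 0.54. On the same scale the constitutive genes were at 171 (Psmb6), 113 (Psmb7) and 61.2 (Psmb5). After 24 h of CFZ in WT, Psme4 at 139 ± 2 CPM per kilobase was above the other activators, which were at 52.2 to 75.5. In Nrf1KO cells at 24 h, Psme4 was at 55.03 ± 1.9, between Psme1 at 51.5 ± 3.8 and Psme3 at 67.3 ± 1.2. These lengths are of all GENCODE exons of a gene, and bias along transcripts was not corrected.

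**Figure D4:**
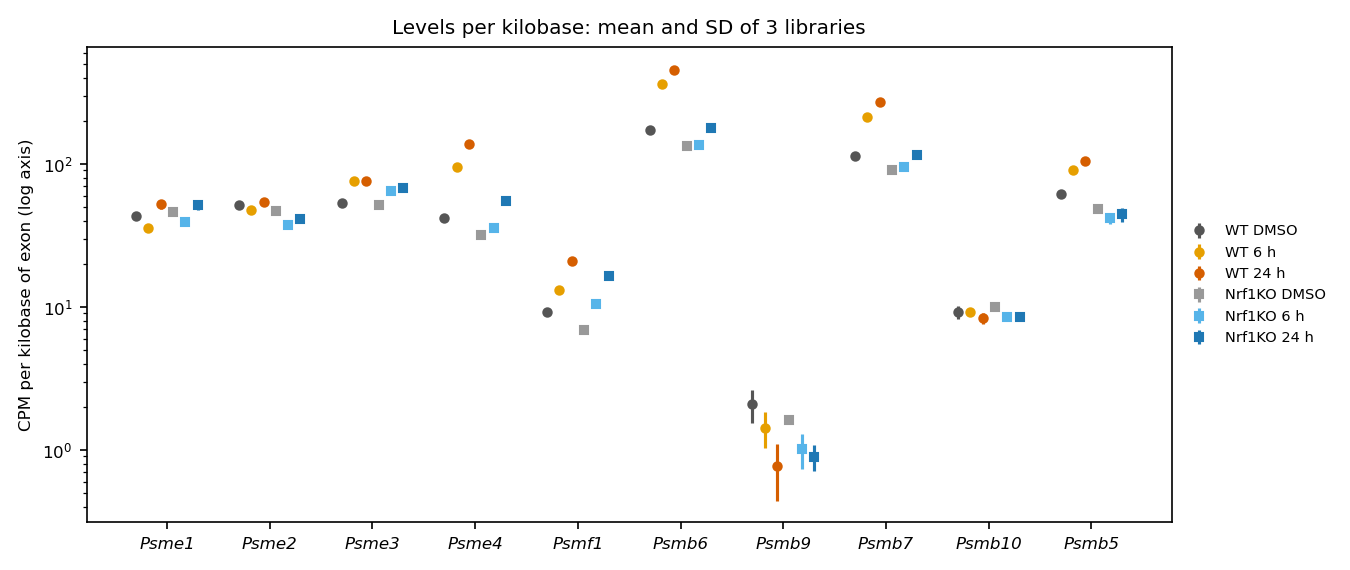
Level per kilobase of exon (CPM, log axis) of the members and of the constitutive counterparts Psmb5, Psmb6 and Psmb7, as mean and SD of 3 libraries in each group. Psme4 went from 41.9 to 139 CPM per kilobase in WT and from 31.9 to 55.03 in Nrf1KO cells, and Psmb9 lay lowest of the genes plotted.

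The genes of the barrel and the 19S cap gave the scale for these responses. All 14 constitutive core genes rose in WT, by a median of 1.04 at 6 h and 1.33 at 24 h. In Nrf1KO cells 1 rose and 4 fell at 6 h (median −0.01), and 9 rose and 1 fell at 24 h (median 0.25). All 14 interactions were negative and called at both times, from −1.64 (Psmb3) to −0.79 (Psmb5) at 6 h and from −1.69 (Psmb3) to −0.69 (Psmb1) at 24 h. All 18 genes of the 19S particle rose in WT (medians 1.42 and 1.60). In Nrf1KO cells 12 of them rose and 1 fell at 6 h (median 0.17), and 14 rose and 2 fell at 24 h (median 0.40). The interactions of the 19S genes were again all called. They ran from −1.68 (Psmd3) to −0.60 (Psmd8) at 6 h and from −1.50 (Psmd12) to −0.55 (Psmd14) at 24 h. Across all tested genes 38.3% had a called interaction at 6 h (19.8% higher, 18.4% lower) and 59.8% at 24 h (29.7% higher, 30.0% lower). This split depended on scaling. Higher calls at 6 h were 51.8% of calls with TMM, 60.3% with upper-quartile scaling and 56.5% with total counts alone. At 24 h they were 49.8%, 53.1% and 40.0%. Of the members, 2 had a called interaction at 6 h (Psme3 and Psme4) and 3 at 24 h (Psme2, Psme3 and Psme4), and each was negative. Psme4 with −1.03 and −0.94 lay inside the ranges of both particles. None of the other 6 members came below −0.23. In DMSO 3 members were lower in Nrf1KO cells and none higher (all genes: 54.7% called, 25.7% higher and 29.1% lower), against 13 of 14 core genes. Under CFZ 4 members were lower and 1 higher at 6 h (all genes: 61.3% called, 30.5% higher and 30.8% lower), and 4 were lower at 24 h (all genes: 72.0% called, 35.6% higher and 36.4% lower). From 6 to 24 h 4 members rose and 1 fell in WT (all genes: 72.4% called, 36.9% higher and 35.4% lower), and 4 rose in Nrf1KO cells (all genes: 77.0% called, 38.7% higher and 38.3% lower). In the former, Psme1 rose by 0.56, Psmf1 by 0.68 and Psmb9 fell by 1.01 on the log2 scale, and the rise of Psme2 (0.19) was not called without WT 6 h replicate 2 (0.13) or 3 (0.12). In the latter, the rise of Psme2 (0.16) was not called without Nrf1KO 6 h replicate 2 (0.14) or Nrf1KO 24 h replicate 2 (0.11) or 3 (0.12), nor with upper-quartile or total-count scaling.

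**Figure D5:**
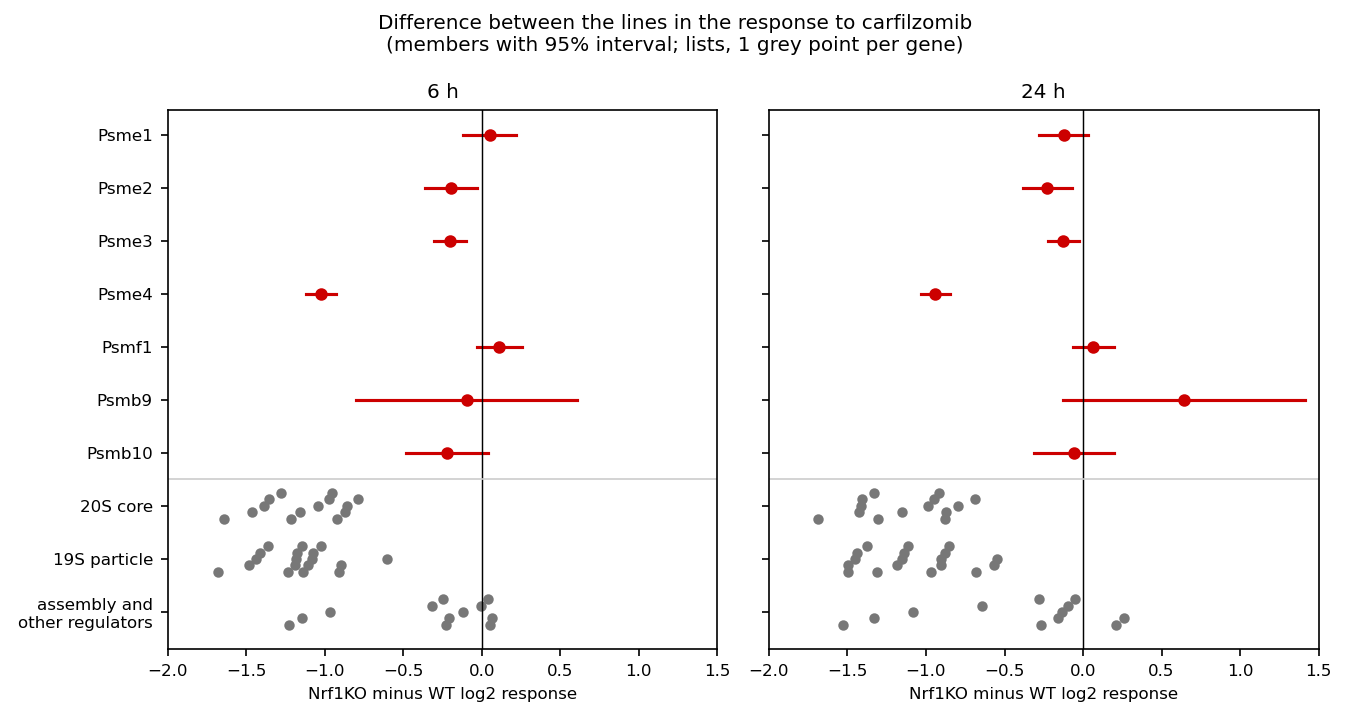
Nrf1KO minus WT difference in the log2 response to CFZ at 6 h and 24 h: the 7 members in red with 95% intervals, and genes of the 20S core, the 19S particle and the assembly list as grey points, all from 3 libraries a group. Psme4 (−1.03 and −0.94) lies among the core and 19S genes, and the other members lie between −0.23 and 0.64, with a wide interval for Psmb9, whose 24 h value is the highest.

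Genes of the MHC class I pathway and of the interferon response, with which the inducible subunits and the PA28 alpha-beta ring are known to be induced, were examined beside the members. Of 11 class I pathway genes tested, 8 rose and 1 fell in WT at 6 h (median 0.38) and 9 rose and 2 fell at 24 h (median 0.62), where 35.6% and 43.2% of all genes were higher. In Nrf1KO cells 8 rose and 1 fell at 6 h (median 0.31), and 8 rose and 2 fell at 24 h (median 0.81), where 34.5% and 44.4% of all genes were higher. The list counts Calr, Canx and Pdia3, whose products are not particular to class I, and their part in these rises was not tested. Canx was the highest of the list in WT at 6 h (0.47). Nlrc5, a transactivator of class I genes, rose most at 24 h, by 1.46 ± 0.20 in WT and 2.27 ± 0.14 in Nrf1KO cells. It was the lowest of the list in WT at 6 h (−0.81). Its reads were few in WT: 28 a library in DMSO, 7 to 17 at 6 h and 46 to 75 at 24 h. Tap1, which adjoins Psmb9, rose at 6 h by 0.38 ± 0.06 in WT and 0.76 ± 0.07 in Nrf1KO cells. It fell by 0.19 ± 0.07 at 24 h in WT, with −0.15 ± 0.07 in Nrf1KO cells (adjusted p = 0.0584 by edgeR). At 6 h Tap1 was thus higher than in DMSO and Psmb9 lower, but the Psmb9 calls were lost with DESeq2 and with single libraries removed. The WT 6 h libraries of Psmb9 also overlapped with DMSO. Reads in the exonic bases that Tap1 and Psmb9 share cannot be told apart. Tap2 rose by 0.62 ± 0.06 and 0.54 ± 0.06 at 24 h. Of the 15 interferon genes tested, 6 rose and 5 fell in WT at 6 h (all genes: 35.6% higher, 36.2% lower). At 24 h 6 rose and 4 fell (43.2% higher, 40.5% lower). In Nrf1KO cells 6 rose and 4 fell at 6 h (34.5% higher, 35.0% lower), and 8 rose and 3 fell at 24 h (44.4% higher, 41.1% lower). In WT at 6 h the 15 ranged from 4.40 ± 0.31 for the chemokine gene Cxcl10 to −2.14 ± 0.28 for Ifit3. Both had few reads: Cxcl10 1 to 5 a library in WT DMSO and 41 to 52 at 6 h, Ifit3 37 to 67 and 4 to 14. Irf9, a subunit of the interferon-stimulated factor complex encoded near Psme2, rose by 1.003 ± 0.11 in WT and 1.53 ± 0.10 in Nrf1KO cells at 24 h, where Psme2 was at 0.05 and −0.17.

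The genes whose log2 levels were most like each member's over the 18 libraries were listed as a description, since libraries share lines, treatments and scaling, among 7453 or 7454 other genes of sufficient level and range. For Psme4 they were Pafah2 (Pearson r = 0.995), Gpi1 (0.995) and Abhd4 (0.993). For Psmf1 they were Supt5 (0.993), Paip2b (0.992) and Mgea5 (0.992), and for Psme3 Mettl6 (0.988), Luc7l (0.987) and Exog (0.986). Psme1 was closest to Gpx1 (0.959), Plat (0.942) and Efna1 (0.936). Psme2 was closest to Ifi30 (0.924), an interferon-inducible lysosomal reductase gene, and then to Dad1 (0.907) and Ndufa3 (0.906). Likeness was lower for Psmb9, with Scrn3 at 0.903, and for Psmb10, with Mkks at 0.791. Psmb9 (too low in level) and Psmb10 (too small in range) were not among the genes searched and could not be listed. No other member was among the 3 genes most like another member.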

How the data were processed

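RNA-seq counts of 18 NIH-3T3 libraries were analysed, 3 in each of 6 groups, which were taken with the replicate numbers from the sample labels. The authors deposited 1 table of raw counts, whole reads per gene symbol, made from paired reads of stranded libraries. Their processing notes name STAR and DESeq2. Build, annotation, versions and use of strand are not given in the sources used here. Of 23420 rows, 6577 had no count in any library. Totals of 8333148 to 23917081 counts set the precision.

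From these counts, edgeR 4.0.16 (R 4.3.3) was fitted once to all 18 libraries and 6 groups after its expression filter (minimum count 10, minimum total 15), with TMM scaling and Benjamini-Hochberg adjustment over 11762 genes. There were 11 comparisons, and the threshold was an adjusted p of 0.05 with no minimum fold. The SE is the size of the fold change divided by the square root of F. The common biological coefficient of variation was 3.13%. Simulated data, with a small set of genes raised in the Nrf1KO 24 h group and all others unchanged, were used to check that the fit runs and finds them. In the real data a large share of genes changed, so that the simulation does not check the scaling or the error rate there. The p-values measure the spread between these samples.

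The 7 members, the gene lists and the tests were chosen with earlier results of these data known. Besides the members, the genes named are Nfe2l1, Psmb5 to Psmb8, the highest and lowest of each list in a comparison, list genes at a member's locus, and the most correlated genes (up to 3 a member, mean CPM of at least 10, log2 range of at least 0.5). Cd3e, Epcam and Krt18 were named after their values were seen. Of the assembly list, 2 of 14 symbols (Paaf1 and Ecpas) were not found in the table. Coordinates came from GENCODE M21 by symbol, and all 7 members matched RefSeq promoter windows. The alternatives are given at the end.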

Additional observations from a re-analysis of the deposited data

Results flagged for a closer look

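In 5 cases the response of a member to CFZ differed between WT and Nrf1KO cells by the interaction test of edgeR. These were 2 of the 7 members at 6 h and 3 at 24 h, where 38.3% and 59.8% of all tested genes were called. The number of cases is thus not above the background. For Psme4 the Nrf1KO response was lower by −1.03 on the log2 scale at 6 h and by −0.94 at 24 h. All 3 Nrf1KO libraries were below all 3 WT libraries in each treatment. For Psme3 the values were −0.20 at 6 h and −0.13 at 24 h, and the 24 h call was lost in 7 of 25 alternatives. For Psme2 the value was −0.23 at 24 h.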

How the results depend on the processing

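Of 77 member results (7 genes, 11 comparisons), 46 kept direction and call in all 25 alternatives, among them 10 of 11 for Psme4 and for Psmf1. Of 51 called results 39 did so, and 1 reversed (Psme1 in Nrf1KO at 24 h). A minimum fold of 2 lowered the number of members called: in WT to 1 at 6 h, 3 at 24 h and 1 from 6 to 24 h; in Nrf1KO to 0, 1 and 0; for Nrf1KO against WT to 0 in DMSO, 1 at 6 h and 1 at 24 h; for the interaction to 1 at 6 h and 0 at 24 h. The share of all tested genes that reach a fold of 2 was not counted, so that these numbers have no background to be read against. DESeq2 1.42.0 lost 7 calls and gained none.

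Reversals were of small values. With upper-quartile scaling they were Psme2 in WT at 24 h (−0.084), Psmb10 in Nrf1KO from 6 to 24 h (−0.028) and Psme1 in Nrf1KO against WT at 24 h (0.011). With scaling by total count they were Psme2 in WT at 24 h (−0.051), Psme1 in Nrf1KO at 24 h (−0.033), Psme3 (0.012 in WT, −0.0072 in Nrf1KO) and Psmb10 (−0.064 in Nrf1KO) from 6 to 24 h, Psme3 in Nrf1KO against WT in DMSO (0.0051) and the Psmf1 interaction at 24 h (−0.013). Without an expression filter Psme2 in WT at 24 h was −0.0025. The cause was not tested. Leaving out 1 library gave ranges across 0 for Psmb10 in Nrf1KO from 6 to 24 h (−0.036 to 0.035), in WT at 6 h (−0.073 to 0.069), in the interaction at 24 h (−0.14 to 0.0067) and between lines at 24 h (−0.025 to 0.11), for Psme1 in the interaction at 6 h (−0.023 to 0.10) and between lines at 24 h (−0.077 to 0.029), and for Psmb9 in the interaction at 6 h (−0.28 to 0.13).

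No clear pairing by replicate number was seen, which does not show that there was none. Deviations of 45 same-numbered pairs correlated at 0.0136 on average (−0.0494 to 0.0972), against −0.0068 for pairs with other numbers. Of 18 libraries, 8 were closest to their own number. With the number as a block, the Psme2 interaction at 6 h was −0.20 (adjusted p = 0.0405) and no other member call changed. Scaling by total count moved the median of all genes most in Nrf1KO at 24 h (from 0.03 to −0.15) and in WT at 6 h (from −0.02 to −0.15), and the share of higher calls in the latter from 49.6% to 35.4%. Depth limits Psmb9 (8 to 58 reads a library) and Psmb8.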

Other observations

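In the assembly list, 12 genes for proteasome assembly factors and other proteasome regulators were tested. Of these, 7 rose and 3 fell in WT at 6 h of CFZ (all genes: 35.6% higher, 36.2% lower). At 24 h 8 rose and 4 fell (all genes: 43.2% higher, 40.5% lower). In Nrf1KO cells 4 rose and 6 fell at 6 h (all genes: 34.5% higher, 35.0% lower). At 24 h 4 rose and 5 fell in Nrf1KO cells (all genes: 44.4% higher, 41.1% lower). The deubiquitinase gene Usp14 had the highest value in WT at 6 h (1.24) and the assembly chaperone gene Psmg1 the lowest at 24 h in both lines (−1.21 in WT, −1.30 in Nrf1KO). The interaction was called for 5 of the 12 at 6 h, all negative, led by the chaperone gene Pomp (−1.22), and for 7 at 24 h, from −1.53 (Psmd5) to 0.26 (Fbxo7). Of all tested genes 38.3% had a called interaction at 6 h (19.8% higher, 18.4% lower) and 59.8% at 24 h (29.7% higher, 30.0% lower). The number called in either direction is thus near the background. By direction, 0 of the 12 were higher and 5 lower at 6 h, and 1 was higher and 6 lower at 24 h. Fbxo7, whose product binds PI31, fell by 0.49 ± 0.04 in WT and by 0.23 ± 0.04 in Nrf1KO at 24 h, where Psmf1 rose in both.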
